A study of Homo sapiens with 12 samples.

Results

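The androgen-induced genes described here are 38 genes known to rise with androgen in prostate cancer cells. They were chosen by symbol from a list, not by their level in these data, though earlier results of these data were known. All 38 were found among the 60660 genes of each library. LNCaP is an androgen-sensitive human prostate cancer cell line that came from a lymph node metastasis. 22Rv1 is a human prostate cancer cell line that came from a xenograft that relapsed after castration of its host. Both lines were transfected with a synthetic copy of a PIWI-interacting RNA (piRNA), called piR-4447944 mimic, or with the negative control NC-mimic. All cells grew in 10% CS-FBS, serum from which charcoal had removed most androgen. mRNA was sequenced in 3 libraries for each of the 4 groups of line and mimic. Every group was thus deprived of androgen, and no library with androgen was part of the comparison, so the values give the level of these genes at low androgen and not their response to it. Each line is a single established line, and no label says that the replicates were separate cultures, so the p-values measure the spread between these libraries, which may be technical.

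Androgens such as testosterone and dihydrotestosterone are steroid hormones that enter the cell and change transcription through androgen response elements in the DNA, often far from the genes they raise. The genes raised in luminal prostate cells make secreted and membrane proteases, lipid, sugar and polyamine enzymes, carriers of the secretory pathway, and regulators that act back on the hormone response. LNCaP is known for a strong dependence on androgen, and 22Rv1 for growth with little of it. In the study, however, 22Rv1 was strongly sensitive to androgen deprivation too, and both lines were selected as androgen-sensitive.

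The classical androgen response element is an inverted repeat of the hexamer AGAACA around a spacer of 3 bases, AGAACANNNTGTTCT. This exact 15-letter pattern, searched on both strands (which read the same), occurs 566 times on chromosomes 1 to 22, X and Y of hg38. It lies within 50000 bases of the start of 1 of the 38 genes (2.63%), against 1.60% of 20007 protein-coding genes. It also lies inside the span of 1 other of the 38, and of 252 of the 20007. Per megabase of gene span there were 0.283 elements in the 38 genes, from that single match, and 0.191 in all. Both matches are shown because they are the perfect elements nearest to or within these genes, and because these genes lay on opposite sides of the line difference described below. The capitals mark the element, and both are written on the plus strand with 5 bases on each side.
LRIG1, chr3:66511024-66511038, at -9761 bases from the start, in no annotated gene: ccagtAGAACATGGTGTTCTggaag
FKBP5, chr6:35602082-35602096, at 126487 bases from the start, in an intron: agcacAGAACACCCTGTTCTgaatg
LRIG1 was lower and FKBP5 higher in 22Rv1 than in LNCaP. Promoters of 300 bases (250 before to 50 after the start, RefSeq) were matched for 28 of the 38 genes. The hexamer AGAACA, or its other strand TGTTCT, was in 3 of these 28 (10.7%), against 14.9% of 27305 promoters. The full element was in 0 of the 28 and in 0.00366% of all promoters. A match of letters is no sign of binding, and weaker versions of the element were not searched.

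The libraries held between 12161091 and 22179601 expected counts, and the 38 genes took between 0.301% and 0.432% of them. Values are given as CPM (the usual depth-scaled unit, from rounded counts with TMM scaling of the library totals over all 12 libraries) where libraries are compared, and as TPM (scaled by the length of the transcripts) where genes are compared. Among luminal markers with NC-mimic, the keratins KRT8 and KRT18 had means of 415 and 337 TPM in LNCaP and of 414 and 402 TPM in 22Rv1, EPCAM 109 and 94.4 TPM, and CDH1, which encodes E-cadherin, 248 and 132 TPM. CDH1 was lower in 22Rv1 by -0.89 on the log2 scale and KRT18 higher by 0.31 (adjusted p = 0.000325 and 0.011 by edgeR). In every library 3 basal, 3 leukocyte and 3 endothelial markers summed to at most 1.05, 1.20 and 1.89 TPM. Of the 3 neuroendocrine markers, SYP was at 58.5 to 66.9 TPM in 22Rv1 and at 0.61 to 1.75 TPM in LNCaP, and CHGA reached 14.04 TPM in 22Rv1 and 0.37 TPM in LNCaP. The 3 fibroblast markers did not move one way. COL1A1 was at 25.01 to 42.87 TPM in LNCaP and 4.23 to 21.68 TPM in 22Rv1, while COL1A2 was at 0 in LNCaP and reached 1.55 TPM in 22Rv1, and DCN reached 0.2 TPM in LNCaP and 2.89 TPM in 22Rv1. Their part in the differences between the lines was not tested. The 22Rv1 libraries numbered 3, of NC-mimic and of piR-4447944 mimic alike, stood apart from the other 4 libraries of the line, and where a call between the lines changed without them, the value without them is given.

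The genes spanned more than 3 orders of magnitude in length-scaled level within each line. In LNCaP, 7 genes had a mean of at least 100 TPM over the 6 libraries, 22 lay between 10 and 100 TPM and 9 were below 10 TPM. The highest was SORD, sorbitol dehydrogenase, at 318 ± 11.9 TPM (SD, n = 6). It was followed by TPD52, a vesicle and lipid droplet protein, at 172 ± 11.4 TPM, PLPP1, a lipid phosphatase of the cell surface, at 162 ± 8.64 TPM, UAP1, which makes UDP-N-acetylglucosamine, at 152 ± 10.1 TPM, and SLC45A3, the prostate membrane protein prostein, at 142 ± 17.1 TPM. TPD52, PLPP1, UAP1 and SLC45A3 had overlapping ranges with their neighbours in this order, while SORD lay above all of them in every library. The lowest were SGK1, MAK and STEAP4, with means of 0.968, 0.710 and 0.0783 TPM.

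In 22Rv1 the order was another one. The highest were CREB3L4, a transcription factor anchored in the endoplasmic reticulum, at 155 ± 59.1 TPM (SD, n = 6), ZBTB10, a zinc finger protein, at 131 ± 22.7 TPM, HPGD, which breaks down prostaglandins, at 129 ± 60.4 TPM, FKBP5, an HSP90 cochaperone of steroid receptors, at 122 ± 33.8 TPM, and PMEPA1, a membrane protein that restrains TGF-β signalling, at 118 ± 47.4 TPM. These 5 ranges overlapped, so the 5 could not be ordered. None of them was among the 5 highest of LNCaP, and none of the 5 highest of LNCaP passed 100 TPM here. SORD was at 39.2 ± 6.80 TPM and SLC45A3 at 24.8 ± 9.52 TPM in 22Rv1. TRPM8, the cold-sensing cation channel, was the lowest, with 1 count in 1 of 6 libraries. Across the 38 genes, which are not independent replicates, Spearman's correlation between the mean TPM of the lines with NC-mimic was 0.517.

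The lines were compared first in the NC-mimic libraries, which asks how far these genes differ in level between the lines at low androgen. With edgeR's quasi-likelihood test and Benjamini-Hochberg adjustment over 17497 genes, 19 of the 38 genes were lower in 22Rv1 (27.5% of all genes tested were) and 11 were higher (30.9% of all genes). Together 30 of 38 differed, against a background of 58.4%. The median log2 fold change of the 38 was -0.365, against 0.0146 for all genes, and the median size was 1.33 against 0.707. Without the 22Rv1 library numbered 3 the median was -0.597. A change of more than 1 on the log2 scale was found in 23 of the 38 genes and in 38.3% of all genes. The groups of 3 did not overlap in CPM for 30 of the 38, against 67.2% of all genes tested.

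TMPRSS2, SLC45A3 and ADAMTS1, which encode proteins of the cell surface or the secreted space, were lower in 22Rv1. TMPRSS2, the transmembrane serine protease (chr21:41464300-41531116, hg38, minus strand), was at 179, 169 and 173 CPM in the LNCaP libraries and at 48.5, 61.7 and 25.5 CPM in the 22Rv1 libraries. Its log2 fold change was -1.94 (SE 0.271, adjusted p = 0.000475). SLC45A3 (chr1:205657851-205680509, minus strand) was at 373, 327 and 311 CPM in LNCaP and at 65.7, 95.3 and 33.8 CPM in 22Rv1, a log2 fold change of -2.38 (SE 0.322, adjusted p = 0.000398). In both genes every LNCaP library lay above every 22Rv1 library, and the 22Rv1 library numbered 3 was the lowest of all. ADAMTS1, a secreted metalloproteinase, was at 431, 455 and 386 CPM in LNCaP and at 29.8, 23.3 and 114 CPM in 22Rv1. Here the 22Rv1 library numbered 3 was the highest of its group, and the log2 fold change of -2.95 (SE 0.555, adjusted p = 0.0022) was -4.00 without it.

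The carriers and the channel, ABCC4, SLC26A2 and TRPM8, were lower as well. ABCC4, which exports cyclic nucleotides and prostaglandins, was at 195, 194 and 194 CPM in LNCaP and at 3.10, 5.36 and 9.78 CPM in 22Rv1, a log2 fold change of -5.06 (SE 0.347, adjusted p = 1.18e-05). TRPM8 had 84, 65 and 47 counts in LNCaP and 1, 0 and 0 counts in 22Rv1. The ratio of the 22Rv1 to the LNCaP level was 0.00567, with an exact 95% counting interval of 0.000143 to 0.0320, and the adjusted p was 8.46e-05. Such intervals cover counting error only. ABCC4 was thus low but present in each 22Rv1 library, whereas TRPM8 rested on a single count. SLC26A2, a sulfate transporter, differed less, by -0.42 on the log2 scale (SE 0.132, adjusted p = 0.0242).

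SORD, UAP1, PLPP1 and SMS, enzymes of sugar, lipid and polyamine metabolism, were lower too. SORD was at 556, 562 and 541 CPM in LNCaP and at 86.2, 86.2 and 69.0 CPM in 22Rv1, a log2 fold change of -2.79 (SE 0.114, adjusted p = 9.93e-07). UAP1, PLPP1 and SMS, the spermine synthase, were lower by -1.59, -1.17 and -0.82 on the log2 scale, each with an adjusted p below that of ADAMTS1. ACSL3, which activates long-chain fatty acids, was at 101, 110 and 100 CPM in LNCaP and at 116, 102 and 69.1 CPM in 22Rv1. It was not found to differ (log2 fold change -0.12, 95% interval -0.523 to 0.284).

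Regulators of transcription and signalling lay on both sides. LRIG1, a membrane protein that restrains growth factor receptors, was at 115, 106 and 116 CPM in LNCaP and at 13.6, 7.82 and 8.23 CPM in 22Rv1, a log2 fold change of -3.50 (SE 0.212, adjusted p = 6.55e-06). MAF, a leucine zipper transcription factor, was at 6.01, 6.77 and 6.39 CPM in LNCaP and at 0.820, 0.452 and 1.06 CPM in 22Rv1, a log2 fold change of -3.05 (SE 0.373, adjusted p = 0.000238). ZMIZ1, a SUMO ligase-like coactivator, HERC3, a ubiquitin ligase, EAF2, a partner of the elongation factor ELL, and TSC22D1, a leucine zipper protein, were lower by -2.39, -1.74, -1.36 and -1.04. The kinase STK39, TPD52 and the vesicle coat gene SEC24D completed the genes that were lower, with log2 fold changes of -0.52, -0.77 and -0.61.

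FKBP5, HPGD and ZBTB10, which are among the 5 highest genes of 22Rv1 named above, were higher there than in LNCaP. FKBP5 (chr6:35573585-35728583, minus strand) was at 71.4, 79.1 and 72.8 CPM in LNCaP and at 401, 427 and 231 CPM in 22Rv1, a log2 fold change of 2.24 (SE 0.219, adjusted p = 7.46e-05). HPGD was at 2.02, 3.28 and 1.52 CPM in LNCaP and at 232, 224 and 54.5 CPM in 22Rv1, a log2 fold change of 6.20 (SE 0.628, adjusted p = 8.94e-05). ZBTB10 was at 87.2, 82.5 and 79.8 CPM in LNCaP and at 775, 807 and 614 CPM in 22Rv1, a log2 fold change of 3.13 (SE 0.128, adjusted p = 9.81e-07). The ranges of these 3 genes did not overlap between the lines, even with the lower 22Rv1 library numbered 3. ELL2, a subunit of the elongation machinery, was at 41.5, 47.0 and 28.9 CPM in LNCaP and at 213, 208 and 130 CPM in 22Rv1, with a log2 fold change of 2.22 (SE 0.238, adjusted p = 0.000121). RHOU, an atypical small GTPase, was at 38.4, 41.4 and 31.3 CPM in LNCaP and at 118, 123 and 192 CPM in 22Rv1, with a log2 fold change of 1.95 (SE 0.207, adjusted p = 0.000114).

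STEAP4, a metalloreductase of the membrane, was the faintest of the higher genes. It had 5, 5 and 2 counts in LNCaP and 18, 24 and 82 counts in 22Rv1, with a log2 fold change of 3.73 (SE 0.896, adjusted p = 0.00732). The library with 82 counts was the 22Rv1 library numbered 3, and without it the log2 fold change was 2.40. UBE2J1, a ubiquitin-conjugating enzyme of the endoplasmic reticulum, was higher by 1.297 on the log2 scale (SE 0.106, adjusted p = 2.8e-05), without overlap. CREB3L4 was at 48.4, 46.5 and 49.6 CPM in LNCaP and at 153.8, 162.7 and 40.6 CPM in 22Rv1, so the 22Rv1 library numbered 3 lay below every LNCaP library. It was called higher, with a log2 fold change of 1.3 (SE 0.431, adjusted p = 0.0305), and 1.71 without that library, but the call was lost without any 1 of the other 5 libraries, with DESeq2 and with limma. CENPN, a centromere protein, NCAPD3, a condensin subunit, and RAB4A, a GTPase of recycling endosomes, were higher by 0.81, 0.75 and 0.49. PMEPA1 was at 135, 144 and 115 CPM in LNCaP and at 435, 505 and 82.8 CPM in 22Rv1, so here too the 22Rv1 library numbered 3 lay below every LNCaP library. Its log2 fold change was 1.37 (adjusted p = 0.0563), and without that library it was 1.83 and passed the test (adjusted p = 2.9e-08 by edgeR). CAMKK2, a kinase upstream of AMPK, the scaffold PDLIM5, the phosphatase PTPN21, the zinc finger factor ZBTB16, the kinases MAK and SGK1, and ACSL3 also did not pass the test.

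The comparison was made again in the piR-4447944 mimic libraries, which are other libraries of the same lines. There 15 of 37 genes were lower in 22Rv1 (24.2% of 17283 genes tested) and 9 were higher (28.2%), 24 in all (52.4%). The median log2 fold change was -0.598, with or without TRPM8 at its bound, and lay between -0.65 (without 22Rv1 replicate 3) and -0.358 (without 22Rv1 replicate 1) when 1 library was left out. All 37 genes tested in both comparisons had the same sign in both, as had 90.0% of 16862 genes, and 22 passed the test in both, 14 lower and 8 higher. For these 22 no matching share of all genes is given, so they are not shown to exceed it. Singly, 58.4% of all genes passed in the first comparison and 52.4% in this one. FKBP5 was higher by 2.09 (SE 0.240) and TMPRSS2 and SLC45A3 were lower by -2.04 (SE 0.301) and -2.61 (SE 0.280). TRPM8 had 36, 48 and 51 counts in LNCaP and 0 in each 22Rv1 library, at least 44.7-fold lower when 3 counts over the group are taken as the floor. STEAP4 was too low to be tested. MAF was at 5.88, 4.55 and 5.57 CPM in LNCaP and 0.756, 1.23 and 3.56 CPM in 22Rv1, and its log2 fold change of -1.52 (adjusted p = 0.0601) was -2.40 without the 22Rv1 library numbered 3 and then passed the test. Without that library 32 of 37 genes passed, against 69.5% of all genes tested. Besides MAF, those that then newly passed were CENPN, NCAPD3, HERC3, TSC22D1, STK39, SLC26A2 and ACSL3. On the log2 scale CENPN then went from 0.46 to 0.79, NCAPD3 from 0.48 to 0.84, HERC3 from -0.88 to -1.28, TSC22D1 from -0.69 to -1.13, STK39 from -0.15 to -0.65 and SLC26A2 from -0.60 to -0.36, and ACSL3 turned from -0.03 to 0.29.

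**Figure D1:**
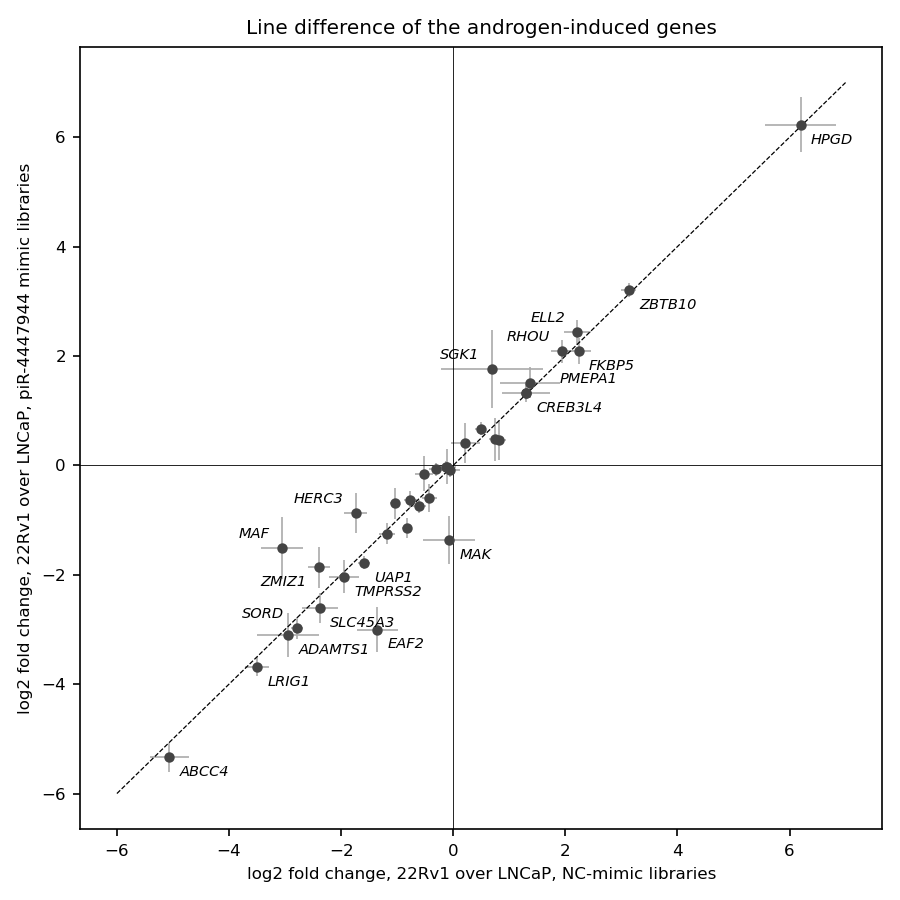
The log2 fold change between the lines (22Rv1 over LNCaP) with NC-mimic on the horizontal axis and with piR-4447944 mimic on the vertical axis, for 36 genes, with bars of 1 standard error and a dashed line of equal values. TRPM8, at 0 counts in all 22Rv1 mimic libraries, and STEAP4, which was not tested with the mimic, are left out. All points lie either at the lower left or at the upper right of the zero lines, from ABCC4 at -5.06 and -5.34 to HPGD at 6.20 and 6.23.

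Other genes of the androgen response were measured beside these. Among 24 other genes that androgen raises, 12 were lower and 6 higher in 22Rv1 with NC-mimic, where 27.5% of all genes tested were lower and 30.9% higher. KLK3, which encodes a kallikrein protease, was lower by -5.30 (SE 0.142). Of 8 genes that androgen lowers, 6 were lower and 1 was higher, against the same shares of all genes.

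Glucocorticoid can raise several of these genes, FKBP5, SGK1 and ZBTB16 among them, through a receptor that reads the same element. That receptor, NR3C1, was at 0.06 to 0.21 TPM in LNCaP and at 4.15 to 6.88 TPM in 22Rv1. Its log2 fold change with NC-mimic was 5.52 (SE 0.321, adjusted p = 5.38e-06). Of 7 tested genes of steroid receptors and their glucocorticoid-raised targets, 3 were higher (30.9% of all genes), NR3C1 itself among them, and 1 was lower (27.5%) in 22Rv1. The targets did not move one way. With NC-mimic, KLF9 had means of 80.8 CPM in LNCaP and 11.2 CPM in 22Rv1, and TSC22D3 of 73.3 and 55.9 CPM. PER1 had 21 and 45.7 CPM, DUSP1 27.3 and 40 CPM, and ERRFI1 40.1 and 69.4 CPM. The SD of DUSP1 and ERRFI1 in 22Rv1 was 20.3 and 76.3 CPM. FKBP5 was higher, while SGK1 and ZBTB16 had log2 fold changes of 0.69 (SE 0.917) and -0.31 (SE 0.126) that did not pass. Whether NR3C1 has a part in the level of FKBP5 was not tested.

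Replicate libraries of 1 line differed most in the pair of 22Rv1 numbered 3. In 22Rv1 both libraries numbered 3 lay below the other 4 for 15 of 37 genes (40.5%, against 19.5% of all genes tested) and above them for 8 (19.6% of all genes). In LNCaP they lay below for 14 of 37 (37.8%, against 14.3%) and above for 2 (14.4%). The sizes were unlike. In 22Rv1, the mean log2 CPM of the libraries numbered 3 minus that of the others was -1.76 for PMEPA1, -1.76 for HPGD, -1.26 for CREB3L4, -1.13 for TMPRSS2, -1.07 for SLC45A3 and -0.838 for FKBP5. In LNCaP it was -0.285, -0.769, -0.00292, -0.0898, -0.274 and -0.138 for the same genes.

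The genes with both libraries numbered 3 below the others in both lines were 7, namely ELL2, HPGD, NCAPD3, PMEPA1, SLC45A3, SORD and UBE2J1, against 4.99% of 14757 genes tested in both lines. None was above in both. ADAMTS1 and RHOU were below in LNCaP and above in 22Rv1. The genes that were above in the 22Rv1 libraries numbered 3 included SGK1 by 2.32, STEAP4 and ADAMTS1 by 1.73 each and ABCC4 by 1.02. Of the other genes that androgen raises, 8 of 23 were below and 4 above in 22Rv1, and 10 of 24 were below and 4 above in LNCaP. The replicate number is not said to mark a batch, a day or a passage, and its meaning was not tested.

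**Figure D2:**
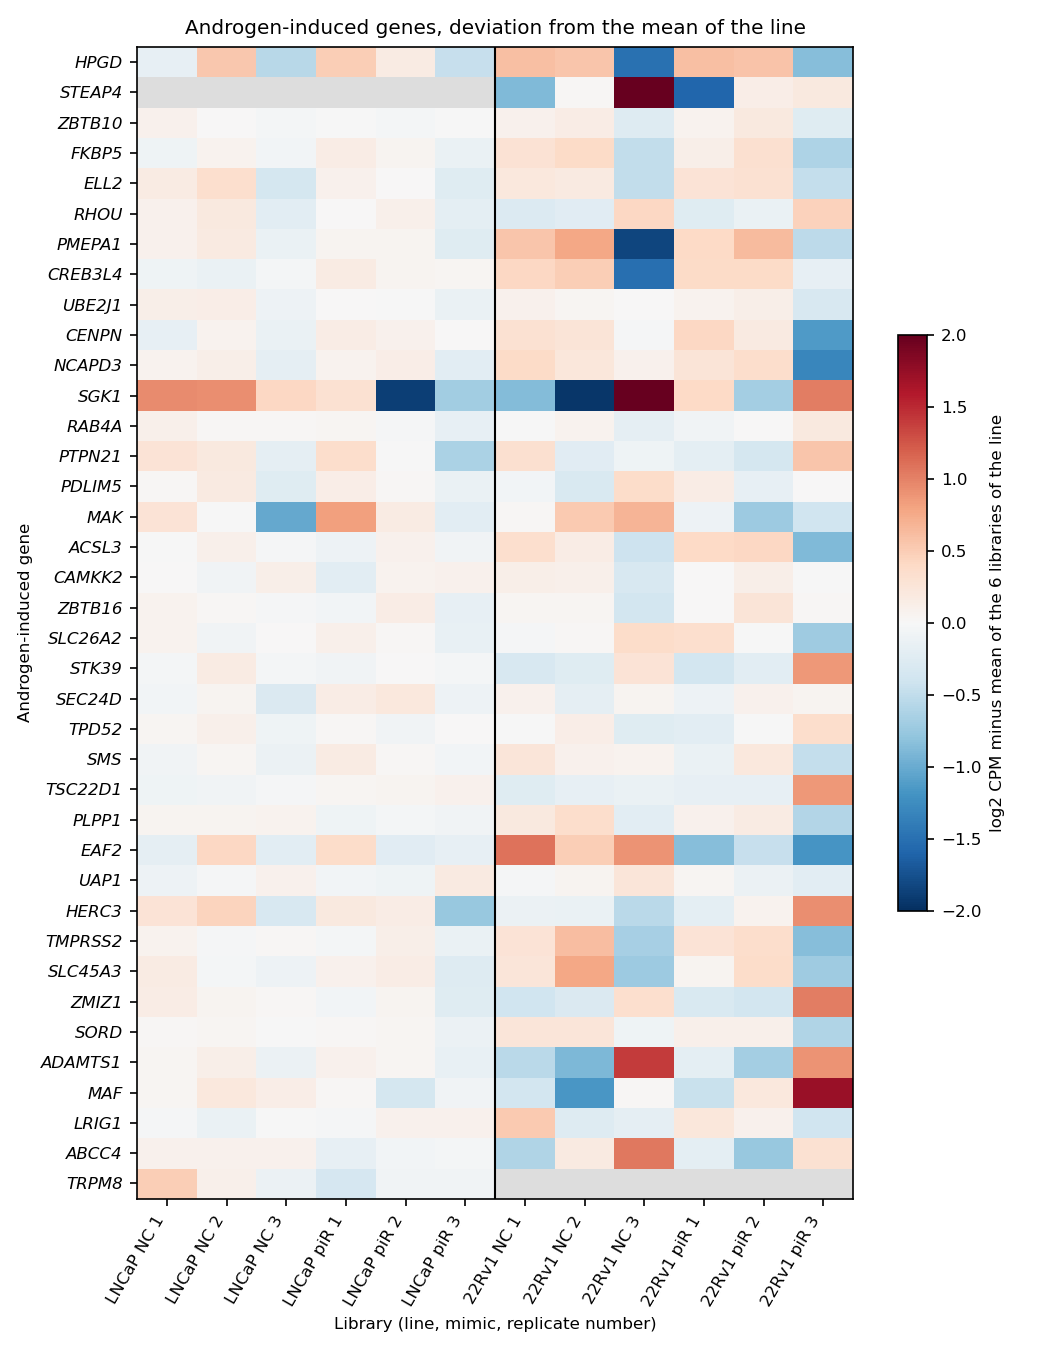
The deviation of each library from the mean of the 6 libraries of its line, in log2 CPM, for the 38 genes, LNCaP on the left and 22Rv1 on the right, with the colour scale ending at -2 and 2. NC stands for NC-mimic, piR for piR-4447944 mimic, and grey for genes that were not tested in that line. In the 22Rv1 columns numbered 3, HPGD, PMEPA1, TMPRSS2 and SLC45A3 are blue and ADAMTS1 and SGK1 are red in both, while most LNCaP cells are pale.

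The mimic was then compared with NC-mimic in each line, to see whether the piRNA moved the androgen-induced genes at low androgen. In LNCaP, 0 of 37 genes tested had an adjusted p under 0.05 by edgeR's quasi-likelihood test (0% of 16244 genes), and the smallest adjusted p among them was 0.999. DESeq2 also called 0 of them. An unadjusted p under 0.05 was found for 2 of the 37 and for 2.67% of all genes. The study's rule asks for a log2 change of more than 0.2 in either direction and p under 0.05 before adjustment. The study used it on DESeq2 values with shrunken log2 fold changes. Used in that way here, it called 0 of these genes and 0.0516% of all genes. The study reported a larger number of genes as changed in both lines, so its calls were not reproduced. On the edgeR values, used here and below unless stated, it called 1 gene, against 2.22% of all genes. The median log2 fold change was -0.0365, with 11 genes positive and 26 negative, and that of all genes was -0.00272. Its sign rested on 1 library, since it was 0.0127 without mimic replicate 3 and -0.0824 without NC-mimic replicate 3. The groups did not overlap in CPM for 6 of the 37, against 7.86% of all genes.

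The gene called in LNCaP was SGK1, the serum- and glucocorticoid-regulated kinase (chr6:134169248-134318112, minus strand). It had 29, 29 and 17 counts with NC-mimic and 14, 3 and 8 counts with the mimic, that is between 1.03 and 1.503 CPM against 0.185 to 0.946 CPM. The log2 fold change was -1.35 (SE 0.511, p = 0.0204 and adjusted p = 0.999 by edgeR, exact permutation p = 0.1, the smallest that 3 against 3 allow). Every mimic library lay below every NC-mimic library, in a gene near the lowest level that could be tested. It did not pass without 1 of 4 libraries (NC-mimic replicate 1 or 2, mimic replicate 2 or 3), with p between 0.0603 and 0.0879.

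ABCC4 was at 195, 194 and 194 CPM with NC-mimic and at 163, 175 and 178 CPM with the mimic. Its log2 fold change of -0.18 (SE 0.0624, p = 0.0147 and adjusted p = 0.999 by edgeR, exact permutation p = 0.1) had the smallest p of the 37 but lay under the study's limit on size. The other genes with the largest negative values, TRPM8 at -0.34 (95% interval -0.901 to 0.220) and MAF at -0.26 (-0.662 to 0.134), and those with the largest positive values, MAK at 0.46 (-0.409 to 1.33), SEC24D at 0.18 (-0.0563 to 0.408) and CREB3L4 at 0.17 (-0.000809 to 0.340), did not pass. Leaving out 1 library moved MAK between 0.127 and 0.729, SEC24D between 0.0887 and 0.266, TRPM8 between -0.462 and -0.16 and MAF between -0.34 and -0.16. FKBP5, TMPRSS2 and SLC45A3 were measured more closely, at 0.04 (-0.143 to 0.227), -0.04 (-0.203 to 0.115) and -0.01 (-0.230 to 0.206). FKBP5 was at 83.5, 78.1 and 68.9 CPM with the mimic and at 71.4, 79.1 and 72.8 CPM without it, so that both groups covered the same range. STEAP4, with 12 counts in all NC-mimic libraries and 14 in all mimic libraries, was below the filter.

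In 22Rv1 the replicates were further apart, and the biological coefficient of variation was 0.343, while it was 0.0964 in LNCaP. Of 37 genes tested, 0 had an adjusted p under 0.05 (edgeR, 0% of 16898 genes; DESeq2 called 0 of them too), 1 had an unadjusted p under 0.05 (1.48% of all genes) and the same 1 was called by the study's rule (1.48%). The median log2 fold change was -0.0317, with 18 genes positive and 19 negative, and that of all genes was -0.00515. Here too the sign rested on 1 library, with 0.0145 without mimic replicate 3 and -0.136 without mimic replicate 1. The groups did not overlap for 2 genes, against 8.78% of all genes tested. In simulated data this fit called 0 of 200 genes changed 2-fold and 137 of 200 changed 4-fold. The 0 adjusted calls therefore cannot show that changes of up to 2-fold were absent.

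EAF2 was the gene called in 22Rv1 (chr3:121835183-121886526, plus strand). It had 37, 17 and 18 counts with NC-mimic and 6, 10 and 5 counts with the mimic, that is 1.69, 1.10 and 1.47 CPM against 0.413, 0.558 and 0.324 CPM. The log2 fold change was -1.70 (SE 0.550, p = 0.0166 and adjusted p = 0.999 by edgeR, exact permutation p = 0.1). All mimic libraries lay below all NC-mimic libraries. With DESeq2's shrunken values EAF2 met the study's rule as well, as did 1.14% of all genes. Without the libraries numbered 3 the log2 fold change was -1.50 and the p 0.0762, and with the replicate number as a block the p was 0.0611. It also did not pass without NC-mimic replicate 1, mimic replicate 1 or mimic replicate 3 alone, with p between 0.0554 and 0.0836. In LNCaP, where EAF2 was higher, its values of 3.11, 4.72 and 3.04 CPM with NC-mimic and 4.53, 3.01 and 3.13 CPM with the mimic overlapped. The difference between the lines in the effect of the mimic was -1.67 (SE 0.522, adjusted p = 1 by edgeR).

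MAK, a kinase of cilia, had 25, 25 and 22 counts with NC-mimic and 15, 12 and 13 counts with the mimic in 22Rv1. It was the other gene without overlap, with a log2 fold change of -0.84 (SE 0.503, adjusted p = 0.999 by edgeR, exact permutation p = 0.1). STEAP4 had 18, 24 and 82 counts with NC-mimic and 7, 30 and 27 counts with the mimic. Its log2 fold change of -1.20 (SE 0.877) became 0.14 without the NC-mimic library numbered 3. MAF had the largest positive value, 1.23 (SE 0.718), with 0.756, 1.23 and 3.56 CPM against 0.820, 0.452 and 1.06 CPM, and was 0.36 without the mimic library numbered 3. HERC3 at 0.60 (SE 0.295) and TSC22D1 at 0.45 (SE 0.278) rested on the same library and were 0.21 and 0.03 without it.

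The best known of these genes overlapped between the mimics in 22Rv1. FKBP5 was at 355, 406 and 213 CPM with the mimic and at 401, 427 and 231 CPM without it, a log2 fold change of -0.12 (95% interval -0.845 to 0.601). TMPRSS2 was at 48.5, 51.7 and 22.4 CPM against 48.5, 61.7 and 25.5 CPM, a log2 fold change of -0.15 (-1.09 to 0.797). SLC45A3 was at 57.8, 72.3 and 34.1 CPM against 65.7, 95.3 and 33.8 CPM, a log2 fold change of -0.25 (-1.20 to 0.699). In each of the 3 genes the library numbered 3 was the lowest of both groups. The intervals in 22Rv1 thus leave room for changes that those of LNCaP do not. TRPM8, at 1 and 0 counts, was below the filter.

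**Figure D3:**
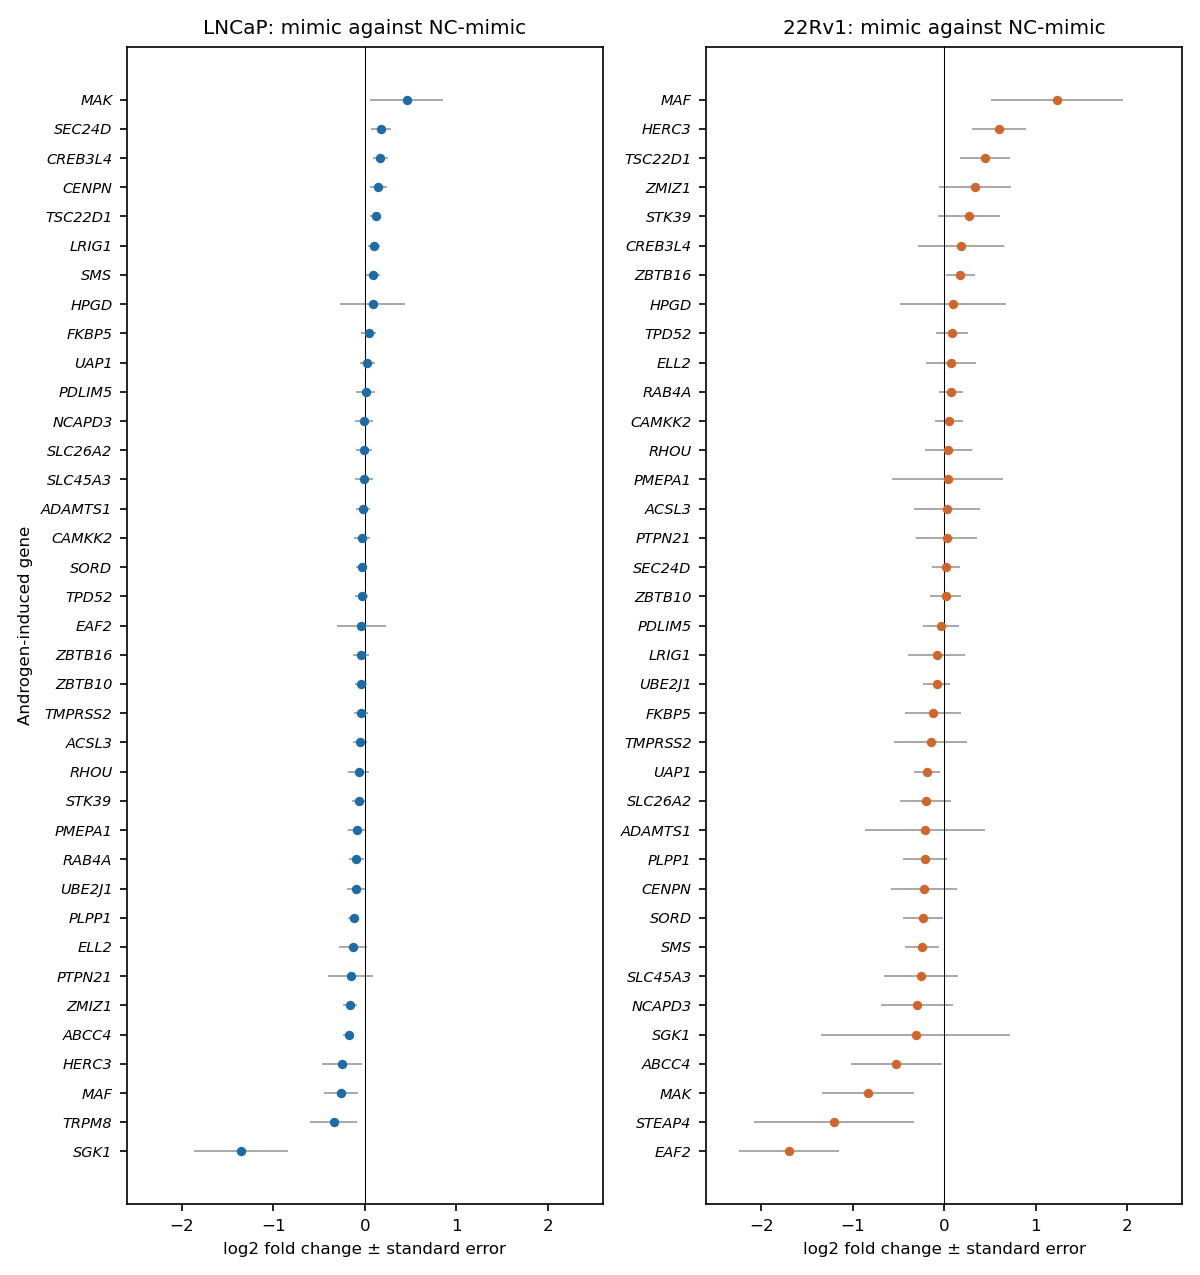
The log2 fold change of piR-4447944 mimic over NC-mimic for the 37 genes tested in LNCaP (left) and in 22Rv1 (right), ordered within each line, with bars of 1 standard error. Nearly all LNCaP points lie close to 0 with short bars, SGK1 at -1.35 is apart, and in 22Rv1 the bars are longer and EAF2 at -1.70 and MAF at 1.23 stand at the ends.

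Between the lines, 36 genes were tested for the mimic in both, of which 11 were negative in both and 4 positive in both. No gene was without overlap in both lines. For the difference between the lines in the effect of the mimic, 0 of 38 genes had an adjusted p under 0.05 (edgeR, 0% of 18720 genes; DESeq2 0), and 2 had an unadjusted p under 0.05, against 3.26% of all genes. They were EAF2 and MAF, the latter with a difference of 1.51 (adjusted p = 1 by edgeR). For the mean effect over both lines, 0 of 38 had an adjusted p under 0.05 (edgeR, 0% of 18071 genes; DESeq2 0). Only EAF2 had an unadjusted p under 0.05, at -0.75 (SE 0.343, adjusted p = 1 by edgeR), against 1.79% of all genes.

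Among other genes of the pathway, KLK2 and KLK3, the kallikrein proteases, were the ones that met the study's rule within a line, in 22Rv1. Of 24 other genes that androgen raises, the study's rule called 0 in LNCaP (2.22% of all genes). In 22Rv1 it called 2 of 23 tested (1.48% of all genes), both lower. They were KLK2 at -0.53 (SE 0.210) and KLK3 at -0.76 (SE 0.281), each with an adjusted p of 0.999 by edgeR. For the mean effect over both lines it called 1 of the 24 higher and 3 lower (1.5% of all genes). For the difference between the lines it called 1, with a negative value (3.26% of all genes). KLK3 was at 46.3, 53.4 and 49.1 TPM with NC-mimic and at 30.7, 40.4 and 24.8 TPM with the mimic in 22Rv1, without overlap on this scale. In LNCaP its log2 fold change was -0.10 (SE 0.0724). Of the genes that androgen lowers, 0 were called by the study's rule in either line.

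For a few genes the level depended on the scale. RSEM divides the reads of a gene between its transcripts, and the TPM follow the resulting mean length. TMPRSS2 was at 58.6 TPM in 22Rv1 with NC-mimic replicate 1 and at 10.7 to 29.4 TPM in the other 5 libraries of the line, although its CPM there, 48.5, lay among the others. Its effective length was 1056 bases in that library and 2395 to 2828 bases in all others. PTPN21 had a log2 fold change with the mimic in 22Rv1 of 0.03 on counts and 1.40 on TPM, with an effective length of 1535 bases in the mimic library numbered 3. SGK1 in 22Rv1 was -0.31 on counts and 1.03 on TPM, and RAB4A in LNCaP was -0.09 on counts and 0.29 on TPM. None of these values passed a test.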

How the data were processed

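Per the submitters' processing notes, STAR 2.7.1a aligned the reads (hg38) and RSEM 1.3.0 counted them. The authors deposited an expected count (reads estimated per gene, not normalized) and a TPM (scaled for effective length, so without depth) per gene and library. Trimming and strand were not given in the sources used here. Expected counts were rounded and tested with edgeR 4.0.16 in R 4.3.3 (TMM, filterByExpr, glmQLFit, glmQLFTest), each comparison on its own 6 libraries, the difference and mean over lines on all 12. Adjustment (Benjamini-Hochberg) covered every gene tested in a fit. Simulated data, in which 200 genes had a change of 1.5-, 2- or 4-fold, were put through the same fits. Of the 200, the mimic fit called 103, 155 and 187 in LNCaP and 0, 0 and 137 in 22Rv1. The line fit called 0, 92 and 147 in the NC-mimic libraries and 0, 4 and 137 in the piR-4447944 mimic libraries. Mimic changes of 1.5- or 2-fold in 22Rv1 would thus mostly have been missed. Between 0 and 20 unchanged genes were called. They were 18 and 20 at 2- and 4-fold in the NC-mimic line fit, and 12, 14 and 16 in the LNCaP mimic fit. In these 2 fits they made up a larger share of the calls than an adjusted p under 0.05 allows. Alternatives were DESeq2 1.42.0, limma 3.58.1 on log2(TPM + 1), other normalization and filters, a replicate block and leaving out libraries. The members and lists were chosen with earlier results of these data known. Named in full were the 5 highest genes of each line, those with an unadjusted p under 0.05 and the 3 highest and 3 lowest values with the mimic, the 6 largest differences between lines in each direction, genes below the filter, FKBP5, TMPRSS2 and SLC45A3. Depth was 12161091 to 22179601 counts per library. No replicates were identical. The deviations of same-numbered 22Rv1 libraries from their group means correlated by 0.214, 0.167 and 0.350. NC-mimic replicate 1 with mimic replicate 2 correlated by 0.186, and NC-mimic replicate 2 with mimic replicate 1 by 0.0865. Only the libraries numbered 3 thus stood out as a pair in 22Rv1, and no label says that the numbers mark pairs. The main test was unpaired, and the replicate block was an alternative. Loci come from GENCODE v44, matched by gene ID. Some items measured in these libraries are not reported here.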

Additional observations from a re-analysis of the deposited data

How the results depend on the processing

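Counts of the 38 genes differing between the lines stayed within 1.5 times the main count under every alternative, but single calls changed. When 1 library was left out, the counts were between 27 and 31 with NC-mimic and between 23 and 32 with piR-4447944 mimic. The share of all genes that passed then lay between 46.9% and 66.2% with NC-mimic and between 38.2% and 69.5% with piR-4447944 mimic. Of the 30 calls with NC-mimic, 23 held under every alternative that tested them, and CREB3L4, SLC26A2, STK39, NCAPD3, EAF2, RAB4A and SEC24D lost theirs under 1 or more. CREB3L4 kept it under 6 of 13, SLC26A2 and STK39 under 8 of 13. Of the 24 with piR-4447944 mimic 22 held, while RAB4A lost its call with limma and MAK kept it under 5 of 12. MAF, not called with the mimic, passed under 6 of 13. The calls with the mimic did not hold as well. In LNCaP the study's rule called 1 of these genes, 2 with no low-count filter or with the replicate block (SGK1 and HERC3), 0 with at least 10 counts in every library, with all 12 libraries in one fit, with DESeq2's shrunken values or with limma, and 0 to 3 without 1 library. In 22Rv1 it called 1 (EAF2, but HERC3 in its place with no low-count filter and without mimic replicate 1), 2 with all 12 libraries in one fit, 0 with at least 10 counts, with the replicate block or without the libraries numbered 3, and 0 to 1 without 1 library. SGK1 could not be called in LNCaP with at least 10 counts or with limma, because the filters of these settings left it out. EAF2 was likewise left out in 22Rv1 with at least 10 counts. These settings thus say nothing of the 2 genes. The value of STEAP4 in 22Rv1 reversed, to 0.136, without NC-mimic replicate 3, and was -1.66 without NC-mimic replicate 1. Over all genes, the study's rule called 361 in LNCaP, but 891 with no filter, 168 in one fit, 15 with DESeq2, 656 with limma and 284 to 1008 without 1 library. It called 250 in 22Rv1, but 532 with no filter, 1232 in one fit, 541 with limma, 459 with the replicate block, 781 without the libraries numbered 3 and 183 to 376 without 1 library. Adjusted calls over all genes were 0 in both lines. In LNCaP they were 46 with no filter, 2 with DESeq2, 4 with limma, 4 with the replicate block and 0 to 2 without 1 library. In 22Rv1 they were 4 with DESeq2, with limma and without the libraries numbered 3. For the difference between the lines in the effect of the mimic, DESeq2 called 3. The cause of these shifts was not tested. In LNCaP the same-numbered libraries correlated by 0.0753, 0.00086 and 0.226. Libraries numbered 3 correlated with the other numbers of the other mimic by -0.194 to -0.04. Only the libraries numbered 3 thus stood out as a pair in LNCaP, as in 22Rv1. Between the lines the same-numbered libraries were not found to be paired, with correlations of -0.0125 to 0.0972. Few counts limit SGK1, EAF2, MAK, MAF, STEAP4 and TRPM8.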
